A study of Mus musculus with 6 samples.

Results

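Adipocytes must make glycerol 3-phosphate to build triglyceride, and 7 genes of that supply were followed here: Pck1, Pck2, Pdk4, Gpd1, Gpd2, Aqp7 and Gk. They were chosen by function, with earlier results of these data known, and found by the Ensembl identifiers of their symbols. The study itself names Pck1 among the genes up-regulated in these libraries. All 7 were present among the 35122 genes of the count table. RNA was taken from fat cells that floated after collagenase digestion of epididymal fat, in male C57BL/6 mice on standard chow, aged 10 to 11 months by the sample labels (the study's text gives more than a year). The 3 control mice were PU.1 fl/fl, and the 3 aPU.1KO mice were AdipoqCre_PU.1 fl/fl, with 1 library per mouse. Both groups carry the loxP-flanked exon of Spi1, the gene of the transcription factor PU.1, and the aPU.1KO mice also carry Cre under the adiponectin promoter, which is active in adipocytes. The controls lack the Cre transgene, so that Cre itself and loss of the exon cannot be told apart. The comparison asks which transcripts of the glycerol 3-phosphate supply differ when PU.1 is deleted in adipocytes of older mice.

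Glyceroneogenesis makes glycerol 3-phosphate from pyruvate, lactate or amino acids rather than from glucose. Pyruvate is carboxylated to oxaloacetate, a phosphoenolpyruvate carboxykinase (PEPCK) turns oxaloacetate into phosphoenolpyruvate, and reversed glycolysis then leads to dihydroxyacetone phosphate, which is reduced to glycerol 3-phosphate. In white fat, where glycerol kinase is low, the route serves to re-esterify fatty acids freed by lipolysis, and glycerol mostly leaves the cell through aquaporin 7.

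Pck1 encodes the cytosolic PEPCK (ENSMUSG00000027513, chromosome 2, 173153048 to 173159273, plus strand) and Pck2 the mitochondrial one (ENSMUSG00000040618, chromosome 14, 55540266 to 55551242, plus strand). Pdk4 encodes a kinase that inactivates pyruvate dehydrogenase and so spares pyruvate from oxidation (ENSMUSG00000019577, chromosome 6, 5483351 to 5496309, minus strand). Gpd1 encodes the cytosolic, NAD-linked glycerol 3-phosphate dehydrogenase (ENSMUSG00000023019, chromosome 15, 99717515 to 99725005, plus strand). Gpd2 encodes the mitochondrial enzyme that oxidizes glycerol 3-phosphate back to dihydroxyacetone phosphate (ENSMUSG00000026827, chromosome 2, 57237635 to 57370719, plus strand). Aqp7 encodes the glycerol channel of adipocytes (ENSMUSG00000028427, chromosome 4, 41033074 to 41048139, minus strand), and Gk encodes glycerol kinase (ENSMUSG00000025059, chromosome X, 85701937 to 85776819, minus strand). All positions are in GRCm38 (GENCODE M21). Exons of Pck2, Gpd1, Gpd2 and Gk overlap transcripts of the opposite strand, by 384 bases in Gpd1 and 487 bases in Gpd2. Whether the counting used strand is not given in the sources used here, so that reads of those stretches are uncertain.

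The stretches just upstream of Pck1 and Gpd2 are shown because these were the pair of genes with the largest positive differences between the groups and a motif match was found in their windows alone. They are from the RefSeq promoter windows in GRCm38.p6, trimmed to end before the GENCODE gene start, on the plus strand, at chr2:173152823-173153047 for Pck1 and chr2:57237428-57237634 for the first of the windows of Gpd2, and capitals mark the motif matches.
Pck1: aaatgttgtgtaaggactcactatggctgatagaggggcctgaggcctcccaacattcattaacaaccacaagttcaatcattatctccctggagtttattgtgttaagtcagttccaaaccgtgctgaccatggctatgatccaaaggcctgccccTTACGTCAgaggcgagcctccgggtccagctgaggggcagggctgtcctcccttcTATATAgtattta
Gpd2: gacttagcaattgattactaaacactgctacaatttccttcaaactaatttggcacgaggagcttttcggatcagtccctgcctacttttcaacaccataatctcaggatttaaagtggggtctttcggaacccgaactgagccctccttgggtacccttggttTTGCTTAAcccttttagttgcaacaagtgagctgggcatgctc
The Pck1 window held TTACGTCA, a form of the cAMP response element, from 93 to 86 bases before the RefSeq start, and the letters TATATA of a TATA box from 38 to 33 bases before it. The Gpd2 window held TTGCTTAA, a match to the C/EBP pattern TTGCNNAA, from 86 to 79 bases before its start. Of 32851 RefSeq windows of 250 bases before a start, searched on both strands, 0.447% held TTACGTCA, 5.25% held TATATA and 9.56% held TTGCNNAA. The other letters searched were TGACGTCA (in 1.55% of all windows), TTGCGCAA (0.164%), which TTGCNNAA includes, TATAAA (12.4%), the PPAR direct repeat (0.0335%) and the PU.1 letters GAGGAAGT (2.44%). None of these was found in the 8 windows of the 6 genes that had one, and no window was found for Gpd1. A match describes letters only, and its absence describes only these windows.

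Library totals lay between 20550252 and 24310144 estimated counts except in control mouse 1, with 69283842. Counts were scaled to the libraries' TMM-adjusted sizes and are given as CPM, the count that a gene would have in a library of a fixed common size. Positive log2 fold changes mean higher levels in aPU.1KO mice, and each is given with its standard error (SE). The test was edgeR's quasi-likelihood test over the 13925 genes with enough counts, among them all 7 genes described here, and the Benjamini-Hochberg method adjusted p over all of them. Spi1 was lower in each aPU.1KO mouse (1.22 to 4.17 CPM) than in each control mouse (6.35 to 26.7 CPM), a log2 fold change of -2.75 (SE 0.64, adjusted p = 0.0788 in edgeR's quasi-likelihood test). With DESeq2, the study's own test, its adjusted p was 0.000115. Adipocyte markers summed to 40897 to 45567 CPM in the controls and 51780 to 62388 CPM in aPU.1KO mice, and all 10 had positive log2 fold changes. Macrophage markers summed to 448 to 1515 CPM and to 222 to 310 CPM, with control mouse 2 lowest of the controls, and 11 of 12 were lower at an unadjusted p under 0.05.

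None of the 7 genes (0 of 7) reached an adjusted p under 0.05 in edgeR, a threshold passed by 0.237% of all genes tested, with 0.0575% higher. At an unadjusted p under 0.05, 2 of the 7 were higher in aPU.1KO mice, Pck1 and Gpd2, against 11.9% of all genes, and 0 were lower, against 13.7%. DESeq2, the test named in the study's methods, called the same 2 genes higher at an adjusted p under 0.05, against 4.69% of all genes, and 0 lower, against 8.73% (13.4% in either direction). The groups did not overlap for Pck1, Gpd2 and Gk, whereas 32.1% of all genes tested had no overlap, 16.7% with higher and 15.5% with lower values in aPU.1KO mice. The median log2 fold change was 0.06 over the 7 genes and 0.01 over all genes tested.

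**Figure D1:**
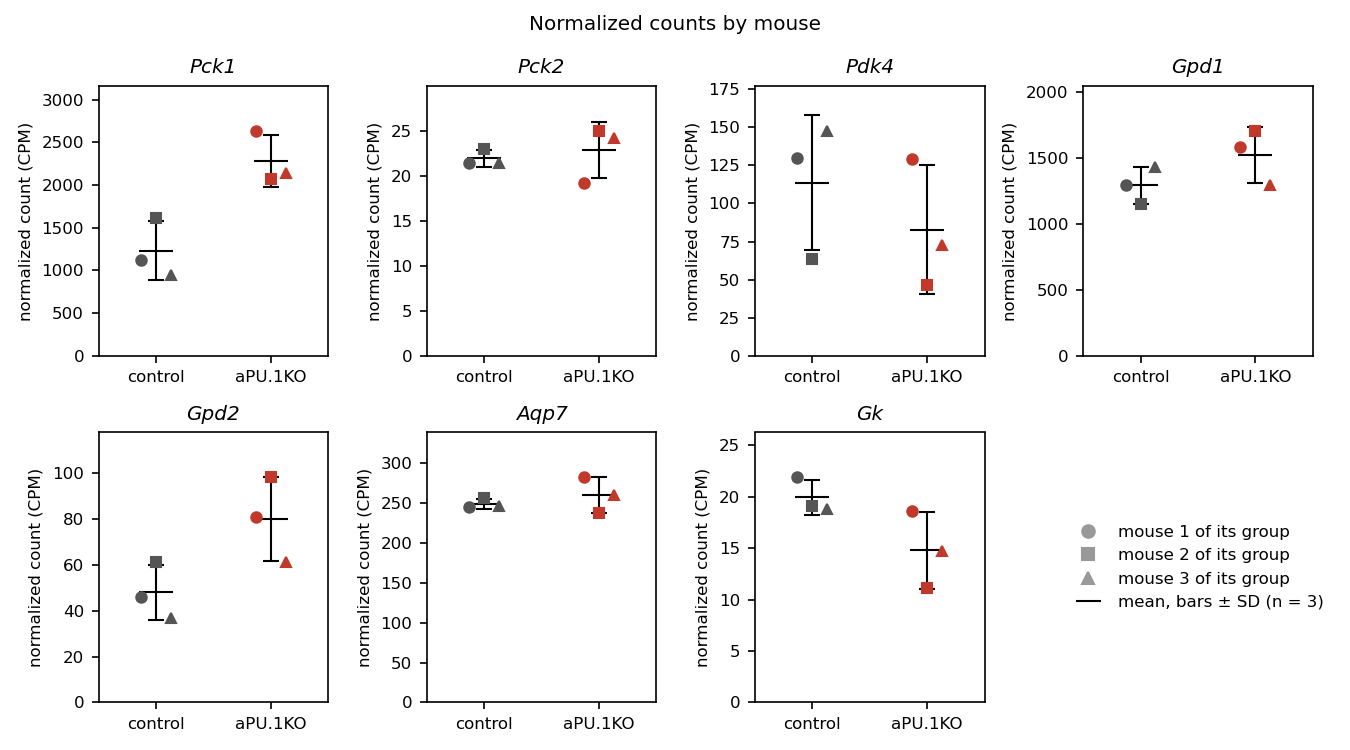
Normalized count in CPM (vertical axis, from 0) of each of the 7 genes in each mouse, with circles, squares and triangles for mice 1, 2 and 3 of each group (grey control, red aPU.1KO), and mean ± SD over 3 mice. Every aPU.1KO mouse lies above every control mouse for Pck1 and Gpd2 and below for Gk, with a gap of 61.0 to 61.3 CPM in Gpd2 and of 18.8 to 18.6 CPM in Gk.

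Pck1 was higher in the aPU.1KO mice, with the largest log2 fold change of the 7 genes when libraries were scaled over all genes, although without aPU.1KO mouse 1 that of Pdk4 was larger in size (-0.94 against 0.77), as were those of Pdk4 and Gk when libraries were scaled to adipocyte markers, which shifted all genes down. Its normalized counts were 1125, 1614 and 947 CPM in control mice 1, 2 and 3 and 2633, 2074 and 2143 CPM in aPU.1KO mice 1, 2 and 3. The lowest aPU.1KO mouse lay above the highest control, which was mouse 2, and the groups did not overlap. The means were 1229 ± 346 and 2283 ± 305 CPM (SD, n = 3 each), with a log2 fold change of 0.89 (SE 0.22, 1.86-fold), an unadjusted p of 0.0050 and an adjusted p of 0.0856 in edgeR. In DESeq2 the adjusted p was 0.00155, and over all alternatives the adjusted p ran from 0.00155 to 0.345. Without control mouse 2, edgeR's log2 fold change was 1.13 with an adjusted p of 0.0164, and Pck1 was then called, as were 8.34% of all genes.

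Pck2 was at about the same level in both groups. It was measured at 21.4, 23.0 and 21.5 CPM in the controls and at 19.3, 25.0 and 24.3 CPM in the aPU.1KO mice. aPU.1KO mouse 1 was the lowest of all and mouse 2 the highest, so that the control values lay inside the range of the aPU.1KO values. The log2 fold change was 0.06 (SE 0.12, adjusted p = 0.791 in edgeR), and 2 standard errors either side reached from -0.18 to 0.30.

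The cytosolic and mitochondrial forms were also compared as the log2 ratio of their counts within a library, which no scaling between libraries can move. Pck1 to Pck2 stood at 5.72, 6.13 and 5.46 in the controls and at 7.09, 6.37 and 6.46 in the aPU.1KO group. All of the aPU.1KO mice were higher, by 0.87 on average (1.83-fold), with an exact two-sided permutation p of 0.1, the smallest that 3 mice against 3 can give, and 0.2 after adjustment over the 4 ratios computed. Without 1 mouse at a time the difference stayed between 0.65 and 1.05.

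Pdk4 varied within both groups by more than the difference between them. Its normalized counts were 129.9, 63.6 and 147.5 CPM in the controls and 129.0, 46.7 and 72.5 CPM in the aPU.1KO mice. Mouse 2 was the lowest of each group, and aPU.1KO mice 1 and 3 lay within the range of the controls. The means were 113.6 ± 44.2 and 82.7 ± 42.1 CPM (SD, n = 3 each), with a log2 fold change of -0.46 (SE 0.43, adjusted p = 0.538 in edgeR). With each mouse left out it ran from -0.94 (without aPU.1KO mouse 1) to -0.18 (without aPU.1KO mouse 2). An interval of 2 standard errors ran from -1.32 to 0.40, so that neither direction could be told at this spread.

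Of the other kinases of pyruvate dehydrogenase, Pdk2 and Pdk1 were named by the rule and had positive differences. Pdk3, which was not, overlapped between groups, with a log2 fold change of 0.10 (SE 0.12, adjusted p = 0.664 in edgeR), and -0.24 when scaled to the adipocyte markers. Pdk2 was 46.7 ± 3.82 CPM in the controls and 70.2 ± 8.11 CPM in the aPU.1KO mice (SD, n = 3 each), with no overlap, a log2 fold change of 0.59 (SE 0.11) and an adjusted p of 0.0724 in edgeR and 0.000464 in DESeq2, within a range of 0.000464 to 0.313 over all alternatives. Pdk1 had a log2 fold change of 0.46 (SE 0.16, adjusted p = 0.143 in edgeR), and 0.25 without aPU.1KO mouse 2. Scaled to the adipocyte markers, Pdk2 was at 0.26 (unadjusted p = 0.0693 in edgeR, adjusted p = 0.148) and Pdk1 at 0.11 (adjusted p = 0.593). The log2 ratio of Pdk4 to Pdk1, Pdk2 and Pdk3 summed, a measure added after the values were seen, was 0.30, -0.85 and 0.57 in the controls and -0.08, -1.87 and -0.89 in the aPU.1KO mice. The groups overlapped through control mouse 2 and aPU.1KO mouse 1, and the difference of -0.95 had an exact two-sided permutation p of 0.2 (0.267 adjusted over the 4 ratios). Leaving out 1 mouse at a time, it ran from -1.39 (without aPU.1KO mouse 1) to -0.49 (without aPU.1KO mouse 2).

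Gpd1, the enzyme that makes glycerol 3-phosphate, was among the most abundant of the 7. It was measured at 1291, 1153 and 1429 CPM in the controls and at 1579, 1703 and 1291 CPM in the aPU.1KO mice. aPU.1KO mice 1 and 2 lay above every control, and aPU.1KO mouse 3 lay within the controls. The log2 fold change was 0.24 (SE 0.15, adjusted p = 0.345 in edgeR), and 2 standard errors either side reached from -0.05 to 0.53. Leaving out mouse 2 of either group alone brought it to 0.15. Its relative Gpd1l had a log2 fold change of 0.26 (SE 0.10, adjusted p = 0.180 in edgeR).

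Gpd2, which takes glycerol 3-phosphate into mitochondrial oxidation, was higher in the aPU.1KO mice. It was measured at 45.9, 61.0 and 37.0 CPM in the controls and at 80.8, 98.1 and 61.3 CPM in the aPU.1KO mice. The groups did not overlap, but control mouse 2 and aPU.1KO mouse 3 were nearly level. The means were 48.0 ± 12.2 and 80.1 ± 18.4 CPM (SD, n = 3 each), with a log2 fold change of 0.74 (SE 0.23, 1.67-fold), an unadjusted p of 0.0146 and an adjusted p of 0.114 in edgeR. DESeq2 gave an adjusted p of 0.0286, and over all alternatives it ran from 0.0286 to 0.394.

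The log2 ratio of Gpd1 to Gpd2 counts was 4.81, 4.24 and 5.27 in the controls and 4.29, 4.12 and 4.39 in the aPU.1KO mice. Control mice 1 and 3 were above every aPU.1KO mouse, and control mouse 2 lay within them. The difference of -0.51 (0.703-fold) had an exact two-sided permutation p of 0.3, both raw and adjusted over the 4 ratios, and with each mouse left out it ran from -0.78 to -0.26.

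Aqp7 differed little between groups. It was measured at 244.7, 256.1 and 246.1 CPM in the controls and at 282.3, 237.4 and 260.2 CPM in the aPU.1KO mice. The controls lay inside the range of the aPU.1KO mice. The log2 fold change was 0.06 (SE 0.09, adjusted p = 0.691 in edgeR), and 2 standard errors either side reached from -0.12 to 0.24.

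Gk, which would phosphorylate glycerol directly, was at low levels and lower in the aPU.1KO mice. It was measured at 21.9, 19.1 and 18.8 CPM in the controls and at 18.6, 11.1 and 14.7 CPM in the aPU.1KO mice. No aPU.1KO mouse reached a control, although aPU.1KO mouse 1 was nearly level with control mouse 3. The means were 19.9 ± 1.68 and 14.8 ± 3.74 CPM (SD, n = 3 each), a log2 fold change of -0.43 (SE 0.19) with an unadjusted p of 0.0563 and an adjusted p of 0.206 in edgeR. With each mouse left out it ran from -0.64 (without aPU.1KO mouse 1) to -0.27 (without aPU.1KO mouse 2). With counts scaled to the adipocyte markers, as described after the single genes, its adjusted p was 0.0373, and over all alternatives it ran from 0.0373 to 0.538. Of its relatives, Gk2 and Gykl1 had 0 counts in every library.

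The log2 ratio of Pck1 to Gk counts set the PEPCK route beside direct phosphorylation of glycerol. It was 5.68, 6.40 and 5.65 in the controls and 7.14, 7.54 and 7.19 in the aPU.1KO group. All of the aPU.1KO mice were higher, by 1.38 on average (2.60-fold), with an exact two-sided permutation p of 0.1, the smallest possible here (0.2 adjusted over the 4 ratios). Leaving out 1 mouse at a time kept the difference between 1.25 and 1.62.

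**Figure D2:**
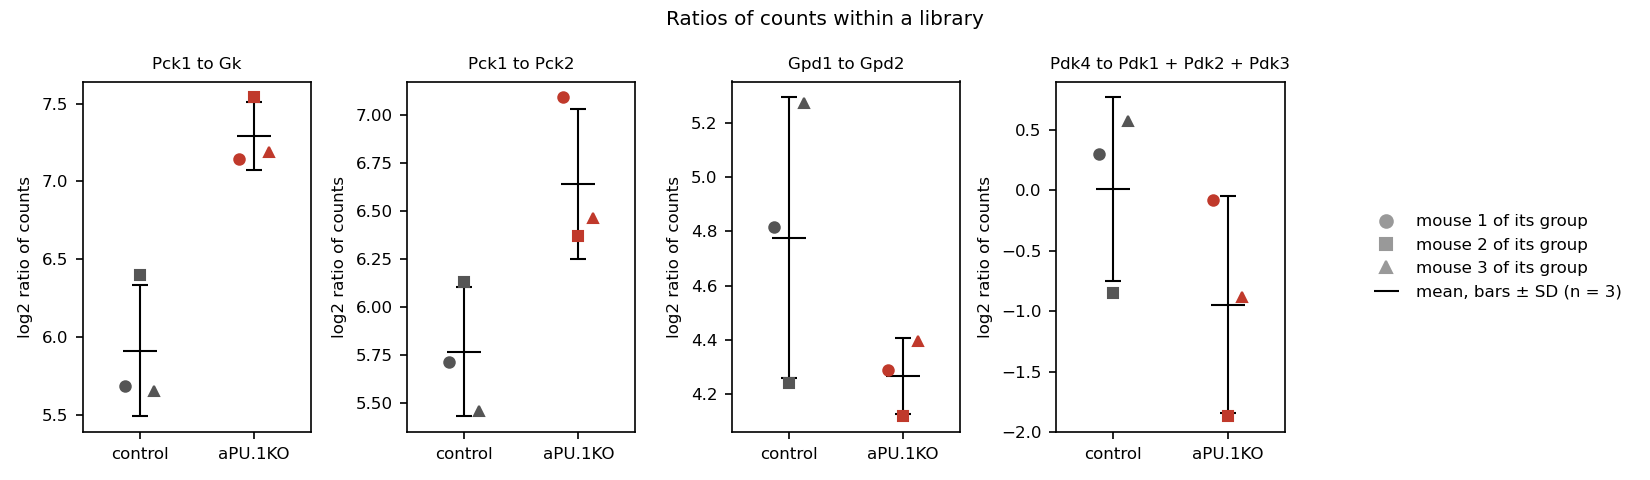
Log2 ratio of counts within each library (vertical axis) for Pck1 to Gk, Pck1 to Pck2, Gpd1 to Gpd2, and Pdk4 to Pdk1, Pdk2 and Pdk3 summed, by group, with symbols for mice 1 to 3 and mean ± SD (n = 3). The groups do not overlap in the ratios with Pck1, which differ by 1.38 and 0.87, and overlap in the others.

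Per kilobase of exon, which allows levels of different genes to be set side by side, the 7 genes spanned a wide range. In the controls Gpd1 (436.0) and Pck1 (358.3) led, followed by Aqp7 (88.0), Pdk4 (32.4), Gpd2 (7.32), Pck2 (2.81) and Gk (2.58), all as mean CPM per kilobase over 3 mice. The ranges of Gpd1 and Pck1 overlapped in the controls, as did those of Pck2 and Gk, and with the length of the principal transcript in place of all exons Pck1 (461.7) came before Gpd1 (451.2). In the aPU.1KO mice Pck1 (665.8) stood above Gpd1 (514.7) without overlap, and Aqp7 (91.9), Pdk4 (23.6), Gpd2 (12.2), Pck2 (2.93) and Gk (1.91) followed in the same order by their means. Pck2 and Gk did not overlap there by all exons. With the length of the principal transcript their means were 4.94 and 3.49, and their ranges overlapped. Pdk4 and Gpd2 overlapped there, and in aPU.1KO mouse 2 Gpd2 (15.0) stood above Pdk4 (13.3). By all exons, Pck1 was 115.8, 188.9 and 112.6 times Gk per kilobase in control mice 1, 2 and 3, and 316.2, 414.7 and 325.5 times in aPU.1KO mice 1, 2 and 3. These multiples depend on the lengths of Pck1 and Gk, here 3429 and 7743 bases. They would be lower with the principal transcripts, of 2661 and 4245 bases.

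The levels were also read with libraries scaled to the 10 adipocyte markers alone, which by its construction moved all genes together and their median by -0.34 on the log2 scale, from 0.01 to -0.32. Under that scaling an unadjusted p under 0.05 was reached by 0.926% of all genes in the higher direction and by 40.4% in the lower. Pck1 was still higher (log2 fold change 0.57, SE 0.18, adjusted p = 0.0596 in edgeR), and Gpd2 stood at 0.40 (SE 0.19, adjusted p = 0.136). Gk was the only one of the 7 called at an adjusted p under 0.05, where 18.5% of all genes were, at -0.78 (SE 0.20), and Aqp7 (-0.28), Pck2 (-0.27) and Gpd1 (-0.11) took the opposite sign, of which Aqp7 had an unadjusted p of 0.0388. Because that scaling moves all genes together, values relative to the median of all genes must be alike under both scalings, which is no second test. They were 0.88 and 0.89 for Pck1, 0.73 and 0.73 for Gpd2, 0.23 and 0.21 for Gpd1, 0.05 and 0.05 for Aqp7, 0.04 and 0.05 for Pck2, -0.45 and -0.46 for Gk, and -0.47 and -0.51 for Pdk4. Pdk4 was at -0.84 (SE 0.41, adjusted p = 0.156 in edgeR).

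**Figure D3:**
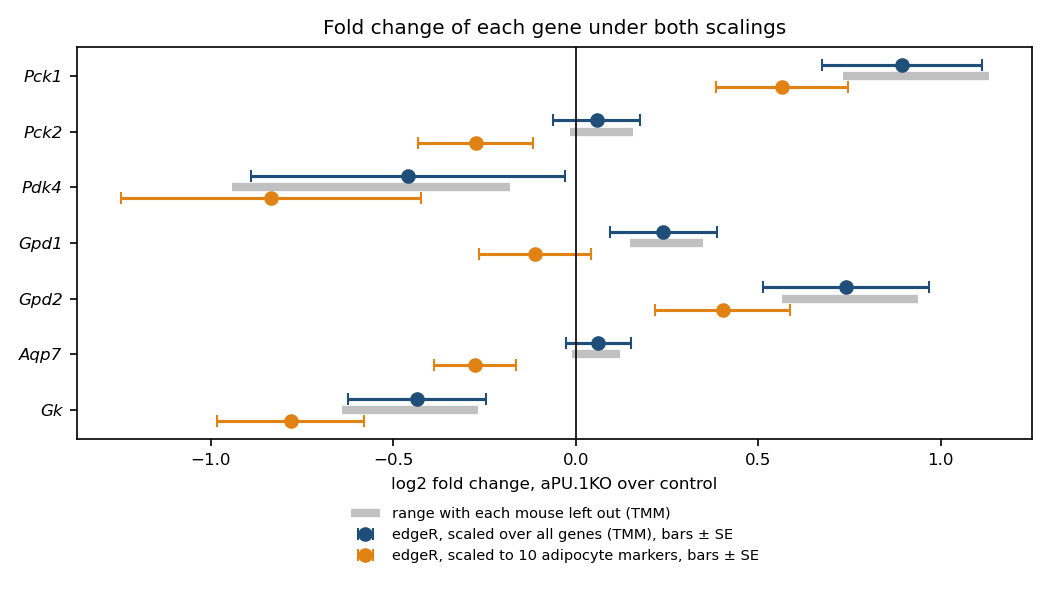
Log2 fold change of each of the 7 genes, aPU.1KO over control (horizontal axis), with libraries scaled over all genes (blue) or to 10 adipocyte markers (orange), bars ± SE, and grey bars for the range when each mouse is left out. Pck1 and Gpd2 are positive under both scalings (0.89 and 0.57, 0.74 and 0.40), Pdk4 and Gk are negative under both, and Pck2, Gpd1 and Aqp7 take opposite signs.

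Libraries of the same group were not alike in their markers, and Pck1 and Gpd2 were read beside them. As log2 CPM minus the mean over the 6 libraries, the adipocyte list averaged -0.34, -0.06 and -0.39 in control mice 1, 2 and 3 and 0.29, 0.45 and 0.05 in aPU.1KO mice 1, 2 and 3. Pck1 on the same scale was at -0.55, -0.03 and -0.80 and at 0.67, 0.33 and 0.38, and Gpd2 was at -0.40, 0.01 and -0.72 and at 0.41, 0.69 and 0.01. Control mouse 2 was the highest control in each of these, and also the lowest control for the macrophage list, at -0.06 against 1.47 and 1.18. The part of cell makeup in these differences was not tested, and in these bulk libraries fewer cells of a type and less RNA per cell cannot be told apart. Without control mouse 2 and aPU.1KO mouse 2 together, a choice made after the values were seen, Pck1 and Gpd2 passed an adjusted p under 0.05 in edgeR (2 of 7), as did 15.2% of all genes.

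**Figure D4:**
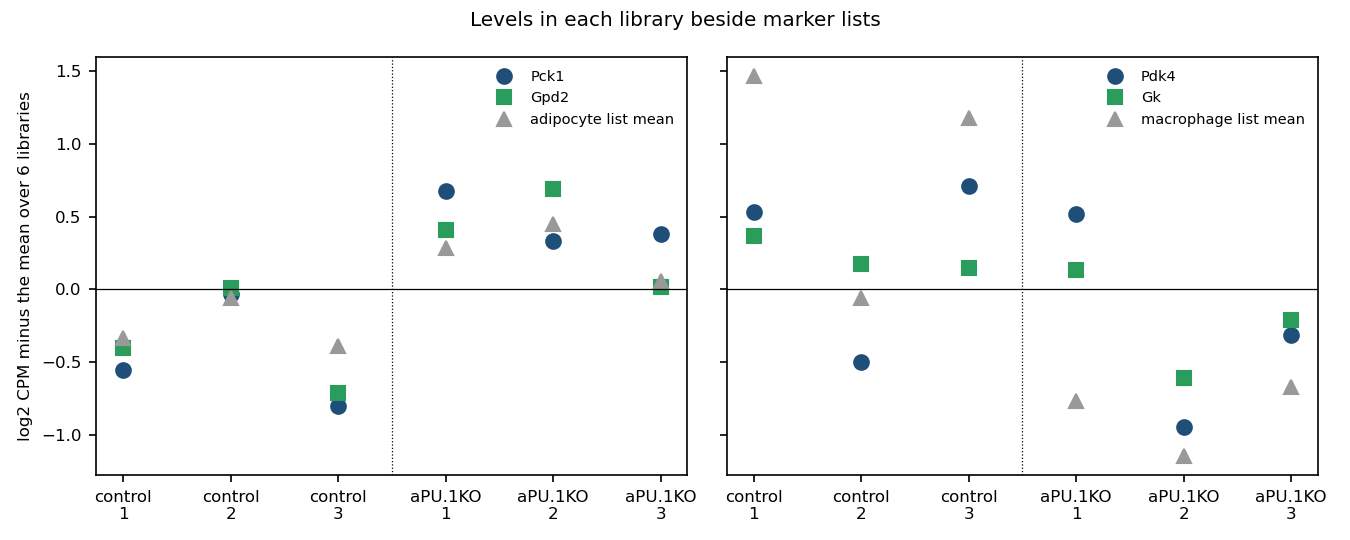
Log2 CPM minus the mean over 6 libraries (vertical axis) in each library, for Pck1, Gpd2 and the mean of 10 adipocyte markers (left) and for Pdk4, Gk and the mean of 12 macrophage markers (right). Control mouse 2 lies near 0 for Pck1 (-0.03), Gpd2 (0.01) and both marker lists (-0.06 each), between the other controls and the aPU.1KO mice or level with the lowest of them.

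Markers of other cells were also summed, and their counts at an unadjusted p under 0.05 stand against 13.7% of all genes lower and 11.9% higher. Hepatocyte markers were at 40.3 to 65.2 CPM in the controls and 17.6 to 23.9 CPM in the aPU.1KO mice, and Fgb and Tat had 0 counts in every aPU.1KO mouse. Of these 10 markers 8 were tested, some with enough counts in the controls alone, and all 8 were lower at that threshold, while G6pc, which was not tested, overlapped between groups (0.358 to 0.397 against 0.0508 to 0.588 CPM). Aqp9, an aquaglyceroporin best known from liver, had 1.10, 1.01 and 1.19 CPM in the controls and 0.203, 0.678 and 0.663 CPM in the aPU.1KO mice, a log2 fold change of -1.08 (SE 0.44, adjusted p = 0.184 in edgeR). Fibroblast and progenitor markers (1563 to 2322 CPM against 903 to 1239 CPM) were lower for 6 of 8 at an unadjusted p under 0.05, and endothelial markers (466 to 676 against 280 to 611 CPM) for 1 of 6. Mesothelial (4.48 to 15.7 against 6.02 to 7.96 CPM), epididymis (0.131 to 1.03 against 0 to 0.853 CPM), skeletal muscle (65.3 to 79.3 against 69.0 to 168.8 CPM) and brown adipocyte markers (18.9 to 24.9 against 16.1 to 27.2 CPM) overlapped between groups in their sums. Among these, 1 of 4 tested brown markers was lower at that threshold (Dio2, log2 fold change -1.57, SE 0.49, adjusted p = 0.115 in edgeR) and 1 of 3 tested muscle markers was higher (Myl1, 0.41, SE 0.10, adjusted p = 0.0795). Ucp1, which defines brown adipocytes, was at most 1.06 CPM, and the epididymal markers Lcn5, Lcn8 and Lcn9 had 0 counts in every library. The part of these cells in the 7 genes' values was not tested.

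The neighbouring steps were read from 6 lists of 69 other genes, 64 of which had enough counts. At an unadjusted p under 0.05, 26 of them were higher and 4 lower in aPU.1KO mice in edgeR, against 11.9% and 13.7% of all genes, and 0 passed an adjusted p under 0.05. DESeq2 called 10 higher and 2 lower at an adjusted p under 0.05, against 4.69% and 8.73% of all genes. Their median log2 fold change was 0.27, against 0.01 for all genes. Scaled to the adipocyte markers it was -0.08, against -0.32 for all genes. It lay 0.25 above the median of all genes under both scalings. Here and in the single lists below, that likeness follows from moving all genes together and is no second test. With the adipocyte scaling an unadjusted p under 0.05 was reached by 1 of the 64 genes with a higher and by 9 with a lower level, against 0.926% and 40.4% of all genes. The count of 30 also changed with single mice left out. It was 8, 28 and 11 without control mouse 1, 2 or 3, and 16, 16 and 34 without aPU.1KO mouse 1, 2 or 3. The share of all genes at that threshold was not taken in these smaller fits, and the cause of the changes was not tested.

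Among 18 genes around pyruvate, oxaloacetate and malate, some of which handle lactate or citrate, 9 had higher and 2 had lower levels at an unadjusted p under 0.05, against 11.9% and 13.7% of all genes. Scaled to the adipocyte markers, 1 was higher and 5 were lower, against 0.926% and 40.4%. The median of the 18 was 0.28, and -0.06 under that scaling, which was 0.27 above that of all genes under both scalings. Mpc1, a subunit of the mitochondrial pyruvate carrier, was 189.5, 202.8 and 199.2 CPM in the controls and 378.0, 417.4 and 245.4 CPM in the aPU.1KO mice. The groups did not overlap, with aPU.1KO mouse 3 closest to the controls, and the log2 fold change was 0.82 (SE 0.19, adjusted p = 0.0796 in edgeR and 0.00207 in DESeq2, 0.00207 to 0.335 over all alternatives). It was the 1 gene of the lists that stayed higher at an unadjusted p under 0.05 when scaled to the adipocyte markers, at 0.46. Pcx, the pyruvate carboxylase, had means of 1023 ± 62.0 and 1528 ± 471 CPM (SD, n = 3 each) and a log2 fold change of 0.58 (SE 0.22, adjusted p = 0.168 in edgeR), but aPU.1KO mouse 3 lay within the controls, and without aPU.1KO mouse 2 it was 0.33. Gpt2, the mitochondrial alanine aminotransferase, had a log2 fold change of 0.58 (SE 0.19, adjusted p = 0.128 in edgeR and 0.0444 in DESeq2, 0.0236 to 0.421 over all alternatives). Scaled to the adipocyte markers, Pcx was at 0.23 and Gpt2 at 0.25.

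Got1 and Slc25a13 were the pair of that list with lower levels at that threshold. Got1, the cytosolic aspartate aminotransferase, was 12.4, 8.89 and 11.7 CPM in the controls and 4.37, 4.07 and 7.06 CPM in the aPU.1KO mice, a log2 fold change of -1.09 (SE 0.25, adjusted p = 0.0786 in edgeR and 0.00216 in DESeq2, 0.00216 to 0.335 over all alternatives). Slc25a13, a mitochondrial aspartate and glutamate carrier, was 5.51, 0.788 and 5.08 CPM in the controls and 0.356, 0.362 and 0.758 CPM in the aPU.1KO mice, with a log2 fold change of -2.95 (SE 0.76, adjusted p = 0.0901 in edgeR and 0.00182 in DESeq2, 0.00182 to 0.340 over all alternatives). Scaled to the adipocyte markers, which lowers all genes, both were lower with an adjusted p under 0.05 in edgeR, 0.0279 for Got1 and 0.0310 for Slc25a13. That threshold was then passed by 18.5% of all genes. Slc25a13 had 7, 8 and 16 counts in the aPU.1KO mice, so that it was tested through its counts in the controls and could not be with a minimum of 10 counts in every library. Control mouse 2 was nearly level with aPU.1KO mouse 3 for Slc25a13. Of the controls, control mouse 2 had the lowest macrophage marker sum (448 CPM) and the highest hepatocyte (65.2 CPM) and adipocyte marker sums. The part of cell makeup in the values of Slc25a13 was not tested.

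Of 8 genes of the pyruvate dehydrogenase complex and its phosphatases, which send pyruvate to oxidation, 6 had higher and 0 had lower levels at an unadjusted p under 0.05, against 11.9% and 13.7% of all genes. Scaled to the adipocyte markers, 0 were higher and 1 was lower, against 0.926% and 40.4%. The median of the 8 was 0.37, and 0.03 under that scaling, which was 0.35 above that of all genes under both scalings. Pdha1 (0.66, SE 0.20), Pdhb (0.63, SE 0.17) and Pdhx (0.53, SE 0.17) had the largest log2 fold changes, and none of them overlapped between groups. For Pdhb the adjusted p was 0.0941 in edgeR and 0.0111 in DESeq2, within 0.0111 to 0.364 over all alternatives. Scaled to the adipocyte markers, Pdha1 was at 0.32, Pdhb at 0.28 and Pdhx at 0.18, and without aPU.1KO mouse 2 Pdhx was at 0.34. The 7 tested genes from phosphoenolpyruvate to triose phosphate all had positive log2 fold changes, from 0.06 for Tpi1 to 0.27 for Gapdh, but 0 of them had an unadjusted p under 0.05. Under the adipocyte scaling all 7 were negative, from -0.29 for Tpi1 to -0.08 for Gapdh. Their median was 0.17, and -0.17 under the adipocyte scaling, which lay 0.16 and 0.15 above that of all genes.

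Of 7 tested genes of glycerol release and re-use, 5 had higher and 0 had lower levels at an unadjusted p under 0.05, against 11.9% and 13.7% of all genes. Scaled to the adipocyte markers, 0 were higher and 0 lower, against 0.926% and 40.4%. Their median was 0.43, and 0.08 under that scaling, which lay 0.41 and 0.40 above that of all genes. Lipe of this list is also 1 of the 10 adipocyte markers that set that scaling. Gpat3, Gpam and Gpat4 encode enzymes that attach a fatty acid to glycerol 3-phosphate, and their log2 fold changes were 0.62 (SE 0.24), 0.61 (SE 0.23) and 0.44 (SE 0.11), where that of Gpat3 was 0.38 without aPU.1KO mouse 2. Gpat4 was 151.5, 176.1 and 143.2 CPM in the controls and 201.3, 235.0 and 203.9 CPM in the aPU.1KO mice. Its groups did not overlap, and the adjusted p was 0.0862 in edgeR and 0.00935 in DESeq2, within 0.00935 to 0.475 over all alternatives. With the adipocyte scaling Gpat3 was at 0.29, Gpam at 0.27 and Gpat4 at 0.11.

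Among 8 tested relatives of the 7 genes, 3 were higher (Pdk2, Pdk1 and Gpd1l) and 1 lower (Aqp9) at an unadjusted p under 0.05, against 11.9% and 13.7% of all genes. Under the adipocyte scaling 0 were higher and 1 was lower, against 0.926% and 40.4%. Their median was 0.15, and -0.18 under that scaling, which lay 0.14 and 0.15 above that of all genes. Among 16 regulators known to act on these genes or on fat cells, 3 were higher and 1 lower at that threshold, and 0 higher and 2 lower under the adipocyte scaling, against the same shares of all genes. Their medians were 0.26 and -0.08 under the respective scalings, 0.24 and 0.25 above that of all genes. Cebpa, a C/EBP factor of mature adipocytes that the study also names as up-regulated in these libraries, was 682.6 ± 22.8 and 876.2 ± 39.9 CPM (SD, n = 3 each). Its log2 fold change was 0.36 (SE 0.09, adjusted p = 0.0868 in edgeR and 0.000218 in DESeq2, 0.000218 to 0.886 over all alternatives). Pparg, the master regulator of adipocytes, was at 0.34 (SE 0.14, adjusted p = 0.194 in edgeR) and Ppara at 0.43 (SE 0.14, adjusted p = 0.118), while Ppard was at -0.22 (SE 0.08, adjusted p = 0.145). Scaled to the adipocyte markers, Cebpa was at 0.02, Pparg at 0.01 and Ppara at 0.09, with adjusted p of 0.886, 0.951 and 0.662 in edgeR. Ppard was then at -0.56, with an adjusted p of 0.0275 in edgeR, where 18.5% of all genes had an adjusted p under 0.05.

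**Figure D5:**
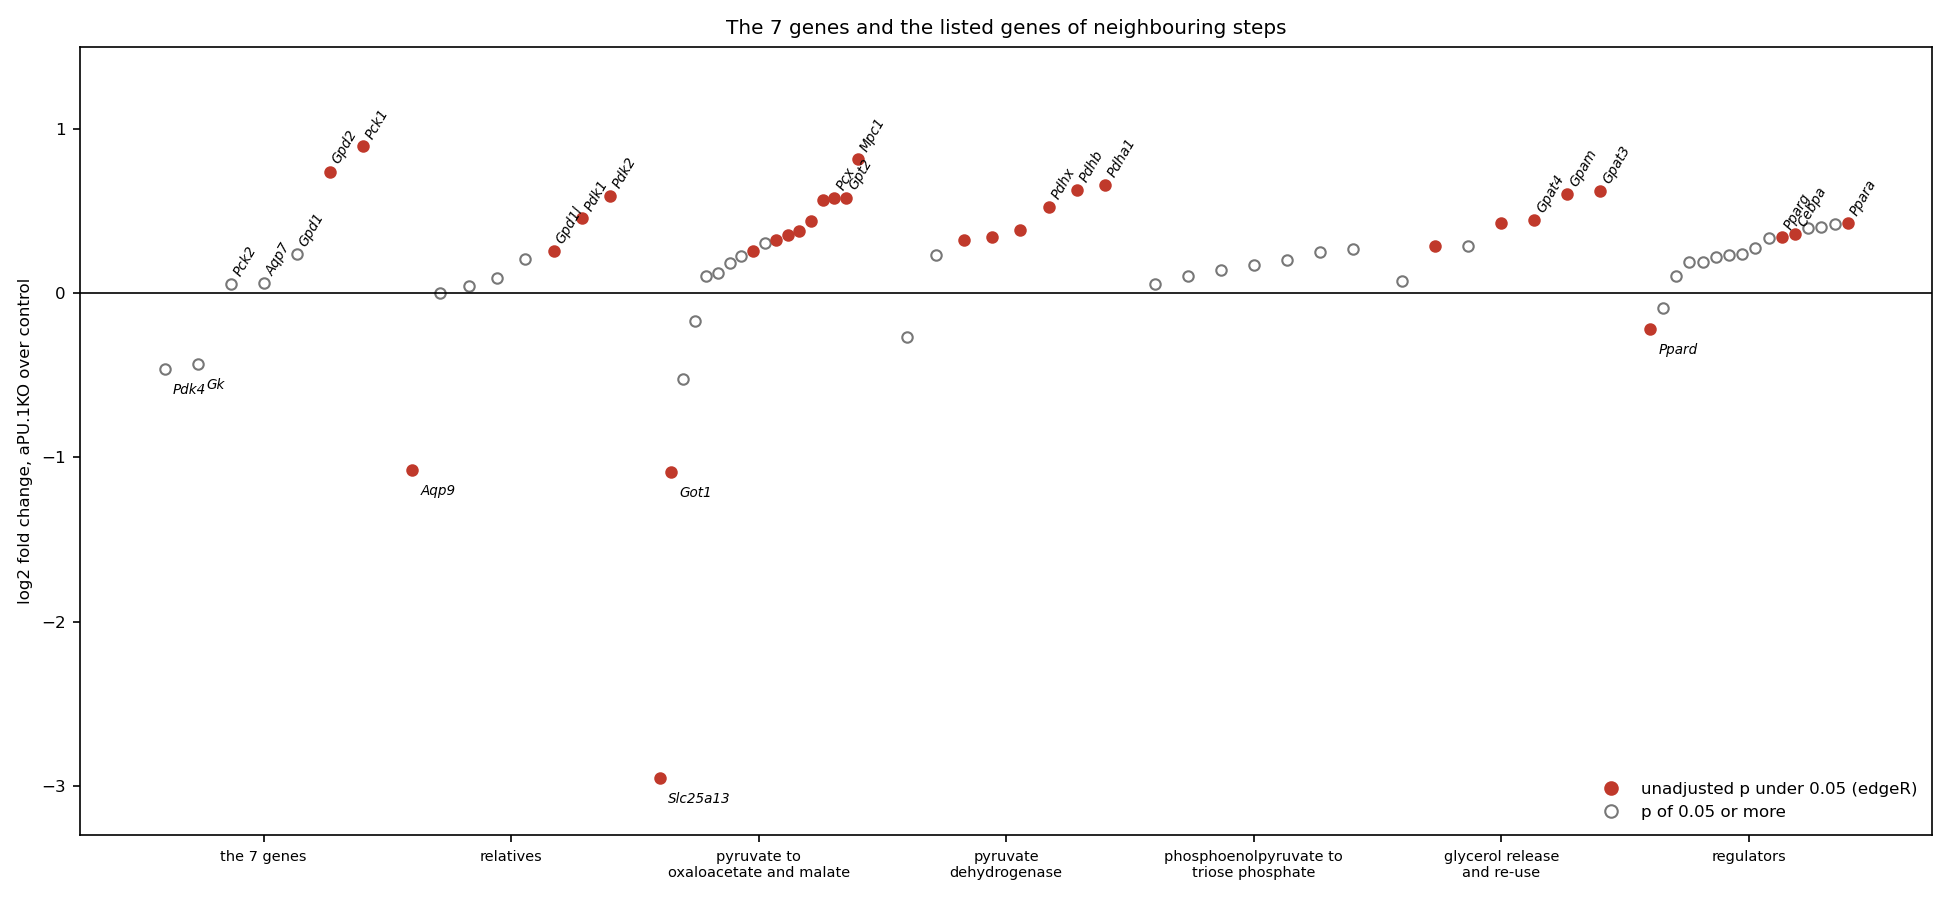
Log2 fold change, aPU.1KO over control (vertical axis), of the 7 genes and of each tested gene of the 6 lists, ordered by size within a list, filled where the unadjusted p was under 0.05 in edgeR. With libraries scaled over all genes, as drawn, most points lie above 0 (55 of 64 listed genes), and Slc25a13 (-2.95), Got1 (-1.09) and Aqp9 (-1.08) lie furthest below. Scaled to the adipocyte markers, the median of the 64 is -0.08.

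The genes whose pattern over the 6 libraries was most like that of each of the 7 were found by the smallest root mean square difference of log2 CPM, each gene first centred on its own mean, among 9611 genes. Nearest to Pck1 were Ffar4, a receptor for long-chain fatty acids (0.087), Eci3, an enzyme of unsaturated fatty acid oxidation (0.108), and Rbp4, the retinol carrier secreted by adipocytes and liver (0.122), where Pck1 itself varied by 0.525 about its mean. Ffar4 was 15.5, 22.4 and 11.6 CPM in the controls and 32.5, 28.0 and 25.8 CPM in the aPU.1KO mice, so that its control mouse 2 also stood closest to the aPU.1KO mice. Nearest to Gpd2 was Adig (0.080), an adipocyte gene named adipogenin, nearest to Pdk4 was Gys2 (0.163), the liver form of glycogen synthase, and nearest to Gk was Cyb5r4 (0.053). Pkig (0.035) was nearest to Pck2, Gpr137 (0.030) to Gpd1 and Orc2 (0.015) to Aqp7, whose own variation was small. These are descriptions over 6 libraries, and the genes compared share those libraries, their depths and the difference between groups.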

How the data were processed

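RNA of the epididymal adipocyte fraction was measured in 6 libraries, 1 per mouse. The authors deposited estimated counts per gene, as whole numbers without normalization: Salmon, run with validateMappings, gave counts per transcript that were summed to genes. The submitters' processing notes also name FastQC and GRCm38, and the Salmon version and annotation are not given in the sources used here. Symbols and positions were taken from GENCODE M21, which matched 35102 of the 35122 genes, and sequences from RefSeq.

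The test was the quasi-likelihood test of edgeR 4.0.16 in R 4.3.3 (filterByExpr, TMM, Benjamini-Hochberg adjustment), and the common biological coefficient of variation was 0.194. An SE is the fitted coefficient divided by the square root of its F statistic. p-values measure the spread between these mice. Ratios within a library used a pseudocount of 0.5, and log2 CPM patterns a prior count of 2. The chi-square per degree of freedom between libraries of a group was 20.4 or more, so that none was a duplicate. The pipeline was tested on simulated data.

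Alternatives were RLE, upper quartile and adipocyte-marker scaling, a minimum of 10 counts in every library, no filter, DESeq2 1.42.0, limma-voom (limma 3.58.1), legacy = FALSE, and leaving out each mouse. Leaving out both mice 2 and the Pdk4 ratio were added after the data were seen. The 7 genes and all lists were chosen with earlier results of these data known. The genes named are the 7, Spi1, up to 3 per list in each direction at an unadjusted p under 0.05, and those with the nearest patterns (the 3 nearest for Pck1, otherwise the nearest, with an average log2 CPM of at least 3). Tpi1 and Gapdh, Pdk3, Gk2, Gykl1 and single cell type markers were named after their values were seen.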

Additional observations from a re-analysis of the deposited data

How the results depend on the processing

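The number of the 7 genes called at an adjusted p under 0.05 was 0 in edgeR and 0 under the other scalings and filters, limma-voom and legacy = FALSE, but 1 (Gk, lower) when scaled to the adipocyte markers, 2 (Pck1 and Gpd2) with DESeq2 and 2 without both mice 2, and with single mice left out it ran from 0 to 1 (Pck1, without control mouse 2). At an unadjusted p under 0.05 there were 2 higher and 0 lower, but 1 higher (Pck1) and 2 lower (Gk and Aqp7) when scaled to the adipocyte markers, 2 higher and 1 lower (Gk) with a minimum of 10 counts, no filter, DESeq2, limma-voom or without aPU.1KO mouse 1, and 3 higher without aPU.1KO mouse 3. The number of listed genes at an unadjusted p under 0.05 was 30, and 10 when scaled to the adipocyte markers, of which 5 were among the 30 and 5 were not, and with single mice left out the count ran from 8 to 34. Scaling to the adipocyte markers, which by construction lowers all genes (their median by -0.34), turned the direction of Pck2 (-0.27), Gpd1 (-0.11), Aqp7 (-0.28) and Gpd1l (-0.079) among 27 genes followed singly. Listed genes outside those 27 turned too, such as Tpi1 (-0.29) and Gapdh (-0.077). With each mouse left out Pck2 ran from -0.015 (without aPU.1KO mouse 2) to 0.16 and Aqp7 from -0.011 (without aPU.1KO mouse 1) to 0.12. The cause of the changes with single mice was not tested. Of 376 alternative values of 27 genes, 346 kept their direction and side of the threshold, 24 passed it and 6 turned, and since none of these genes had passed it at first, no call could be lost. Slc25a13 and Aqp9 had too few counts for the minimum of 10 in every library. The ratios of counts kept their direction with each mouse left out. No paired analysis was possible because the mouse numbers in the labels are not shared between the groups and, although the study used littermate controls, the sources used here do not say which mice shared a litter. The 3 mice per group limit every p, and control mouse 1 was sequenced more deeply than the rest.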
